A study of Homo sapiens with 7 samples.

Results

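The regions described here are the pT120 peaks that were found in control cells only. pT120 is histone H2A phosphorylated at the threonine T120. They are the peaks of the siControl pT120 list that overlapped by at least 1 bp no peak of the siVRK1 pT120 list, of the siControl VRK1 list or of either input list. Of 6665 siControl pT120 peaks, 2668 met this rule (40.03%, 95% interval 38.9 to 41.2), out of 148917 peaks in all 7 lists. The cells were HT1080, an established human fibrosarcoma line. All libraries came from this line, after transfection with siRNA that targets VRK1 mRNA (siVRK1) or has no target (siControl). Chromatin immunoprecipitation with sequencing profiled pT120, ubK119 (H2A with ubiquitin on K119) and input DNA under either siRNA, and VRK1 under siControl alone. Library totals, in units of 1e6 reads, ranged from 20.7 for siControl pT120 to 40.4 for siControl ubK119. Each group was 1 library, so no difference has a replicate check, no p-value is given, and whether a peak would be absent from a further siVRK1 library cannot be told. All intervals are 95% intervals of counting error, and reads from PCR are not independent molecules.

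VRK1 is a nuclear serine/threonine kinase that phosphorylates several chromatin proteins, among them H2A at T120. The neighbouring lysine K119 is ubiquitylated by the RING1 ligases of Polycomb repressive complex 1, a mark associated with gene repression. The study's title links H2A T120 phosphorylation to cyclin D1 and oncogenic transformation. Without a VRK1 library of siVRK1 cells, its depletion cannot be checked here. The lists carry no gene names and the annotation at hand is of another genome build, so the peaks are named by their hg19 positions.

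The rule removed peaks in steps. An input peak was overlapped by 3615 of the siControl pT120 peaks (54.2%, 53.0 to 55.4), and these are called input-overlapping. A further 296 (4.44%, 3.96 to 4.96) lay outside input peaks and overlapped a VRK1 peak. Another 86 (1.29%, 1.03 to 1.59) lay outside input and VRK1 peaks and overlapped a siVRK1 pT120 peak, and these are called shared. Peaks removed in the earlier steps may also overlap a siVRK1 pT120 peak and are not in this count. No expected share was computed. Outside input peaks, the siControl-only peaks thus made up 87.5% (86.2 to 88.6) of the siControl pT120 list. The same rule turned round, siVRK1 pT120 peaks that overlapped no siControl pT120, VRK1 or input peak, gave 37603 siVRK1-only peaks. The lists were drawn up at different depths. The lowest height was 12 reads in each pT120 list, which is 0.333 RPM (reads per 1000000 reads of a library) in siVRK1 and 0.580 RPM in siControl cells.

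The siControl-only peaks stood close to the lower limit of their list. Peak height, the authors' maximum of overlapping extended reads, was at the minimum of 12 reads in 1766 of them (66.2%, 64.4 to 68.0), against 22.8% (21.5 to 24.2) of the other siControl pT120 peaks. A height of 13 reads was given for 605, of 14 for 192, and the maximum was 19 reads in 3 peaks. Their length had a median of 200 bp, which was also the shortest length in the list, and a maximum of 580 bp. Exactly 200 bp were given for 57.0% (55.1 to 58.9), against 17.3% (16.1 to 18.5) of the other peaks. Together they covered 598679 bp. The Mann-Whitney p-value of the authors' peak caller was below 0.05 for 15.4% (14.02 to 16.8) of the siControl-only peaks and for 20.6% (19.3 to 21.9) of the others. The siControl pT120 count in the region lay below the height for 48.0%, against 16.6% of the other peaks. It lay below 0.5 of the height for 7 siControl-only peaks (0.262%), against 26 of the others (0.650%).

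At the edge of the rule, the member on chromosome 18 from 9430484 to 9431064 touched an excluded peak with 0 bp between them, and that on chromosome 3 from 127492149 to 127492420 had a gap of 1 bp. Just outside it, the peaks on chromosome 12 from 19610901 to 19611101 and on chromosome 3 from 127579803 to 127580003 each overlapped an input peak by 1 bp. These had 4 and 5 reads of siVRK1 pT120 against 12 and 11 of siControl pT120, while those just inside had 13 and 6 against 28 and 13. Of the members, 115 had an excluded peak within 100 bp and 415 within 500 bp.

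The levels that chose the peaks come first and are a description only. In the typical siControl-only peak there were 3 reads of siVRK1 pT120 (median, 0.0833 RPM), against 12 reads of siControl pT120 (0.580 RPM). No siVRK1 pT120 read at all was found in 192 of the peaks, and the highest count was 15. Summed over the 2668 peaks, pT120 was 250.6 RPM in siVRK1 cells against 1556 RPM in siControl cells. In 1 peak, with a height of 15, the files count 0 pT120 reads under either siRNA, and in every other the RPM was lower in siVRK1 cells. The inputs had 542 RPM in siVRK1 and 460 RPM in siControl cells at the same regions, with medians of 6 and 4 reads.

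**Figure D1:**
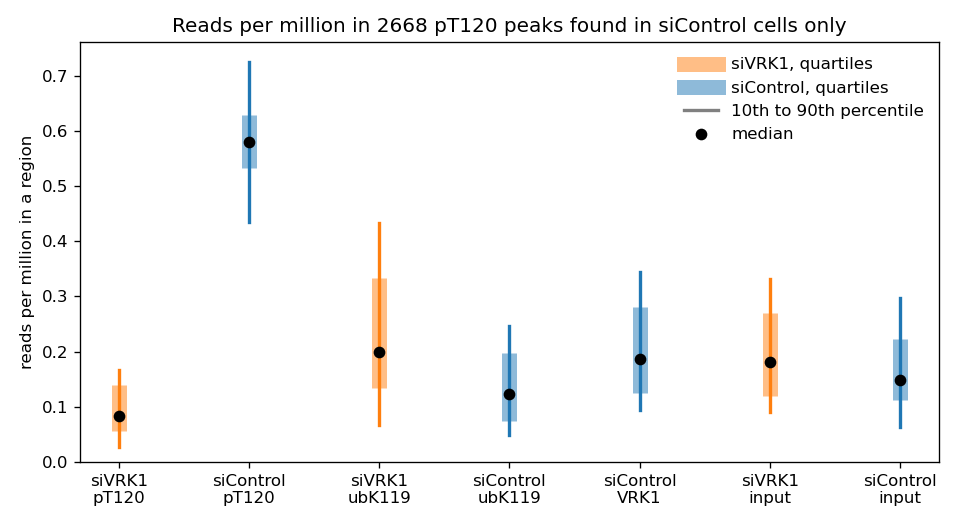
RPM per region in the 2668 siControl-only pT120 peaks, for each of the 7 libraries; the dot is the median, the box spans the quartiles and the line the outer deciles. siVRK1 pT120 is the lowest library, with a median of 0.0833 RPM, and siControl pT120, which chose the regions, the highest, with 0.580 RPM.

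After siVRK1, pT120 at these regions lay below the input of the same cells. It stood at 0.462 times (0.4504 to 0.474) the siVRK1 input, and 2294 of the 2668 peaks (85.98%) had a lower RPM of siVRK1 pT120 than of siVRK1 input. A level below input was common in the whole list. With 0.5 reads added to each count, the ratio per region had a median of 0.484 and an upper quartile of 0.781. Over all siControl pT120 regions these were 0.533 and 0.849. The siControl pT120 level was 3.38 times (3.31 to 3.45) that of its own input. The siVRK1 pT120 and input lists entered the rule, so nothing is read from these values. Among all siControl pT120 regions with at least 10 reads in the pair, 45.4% had siVRK1 pT120 at or below 0.5 times the siVRK1 input, and 751 of 1384 siControl-only peaks did (54.3%). At least 2 times the input was reached by 2.69% of all and by 31 of the 1384 (2.24%). Scaled to the median over all siControl pT120 regions in place of library totals, the level at the siControl-only peaks was 0.867 times the input. The siVRK1-only peaks offer the reverse view, since there siVRK1 pT120, which chose them, was at 3.298 times its input and siControl pT120 at 0.845 times (0.837 to 0.852).

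VRK1 itself, which the rule kept below the peak threshold, was present at 554 RPM over the siControl-only peaks against 460 RPM of siControl input, 1.20 times (1.18 to 1.23). Set against the siVRK1 input, the ratio was 1.02 (1.0001 to 1.04), so the excess over input depended on the input used. The typical peak had 6 VRK1 reads and 4 siControl input reads. At the 296 peaks with a VRK1 peak, VRK1 stood at 2.37 times (2.25 to 2.50) the siControl input. At the shared peaks it stood at 0.994 times (0.897 to 1.10) and at the siVRK1-only peaks at 0.816 times (0.809 to 0.822). The VRK1 list entered the choice of each of these sets. A level of at least 2 times input was met by 14.4% of all siControl pT120 regions with enough reads and by 338 of 1632 siControl-only peaks (20.7%, 18.8 to 22.8). A level at or below 0.5 times was met by 5.05% of all and by 126 of the 1632 (7.72%).

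**Figure D2:**
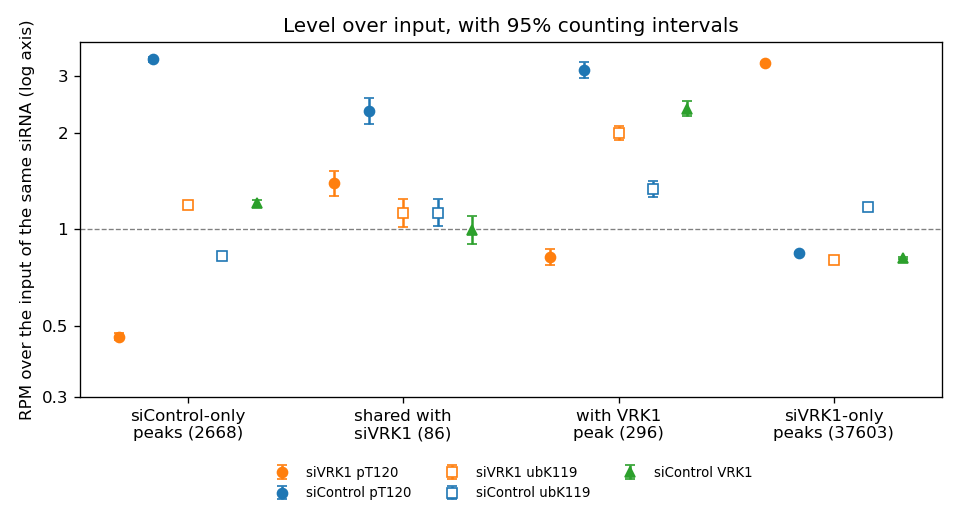
Level of each antibody library over the input of the same siRNA (log axis), summed over the siControl-only, shared, VRK1-overlapping and siVRK1-only pT120 peaks, with 95% counting intervals. At the siControl-only peaks siVRK1 pT120 is at 0.462, siVRK1 ubK119 at 1.19, siControl ubK119 at 0.827 and VRK1 at 1.20 times input; at the siVRK1-only peaks the order of the ubK119 libraries is turned round.

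ubK119 reads had no part in choosing the peaks. The summed level at the siControl-only peaks was 646 RPM in siVRK1 cells against 380.3 RPM in siControl cells, a ratio of 1.70 (1.66 to 1.74). The median region had 6 ubK119 reads after siVRK1 and 5 in siControl cells, which is 0.2002 and 0.124 RPM. A higher RPM of ubK119 in siVRK1 than in siControl cells was found at 2047 of the 2668 peaks (76.7%), and likewise at 77.8% of the other siControl pT120 peaks. Relative to the input of the same cells, ubK119 was at 1.19 (1.17 to 1.22) after siVRK1 and at 0.827 (0.807 to 0.846) after siControl. The input itself had a ratio of 1.18 (1.15 to 1.21) of siVRK1 to siControl there, and ubK119 divided by this input ratio gave 1.44 (1.40 to 1.49). Scaling to the median over all siControl pT120 regions brought the ubK119 ratio to 1.11, and turned the siControl level over input to 1.12.

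Once divided by the input ratio, the ubK119 interval of the siControl-only peaks overlapped those of the siControl pT120 peaks that the rule removed, other than the shared ones. All 3997 other peaks together had 1.46 (1.45 to 1.47), the input-overlapping peaks 1.46 (1.45 to 1.46) and the VRK1-overlapping peaks 1.49 (1.39 to 1.61). Without that division the siControl-only peaks had a ubK119 ratio 1.22 times (1.19 to 1.25) that of the other peaks, whose sums are carried by regions with very many reads. The median over single regions was 1.65 at the siControl-only and 1.502 at the other peaks. Against the VRK1-overlapping peaks the ratio of ratios was 0.985 (0.938 to 1.03), an interval that includes 1. The level of ubK119 over input was lower at the siControl-only than at the VRK1-overlapping peaks under either siRNA, by a ratio of ratios of 0.597 (0.566 to 0.629) after siVRK1 and 0.619 (0.582 to 0.658) after siControl.

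The shared peaks differed from the siControl-only peaks in ubK119. At the 86 shared peaks ubK119 was 27.3 RPM in siVRK1 and 28.4 RPM in siControl cells, a ratio of 0.963 (0.880 to 1.05). The ratio at the siControl-only peaks was 1.76 times (1.61 to 1.93) that at the shared peaks. For ubK119 over input, the ratio of ratios between the siControl-only and the shared peaks was 1.06 (0.960 to 1.17) in siVRK1 cells, an interval that includes 1, and 0.734 (0.665 to 0.809) in siControl cells. The input ratio at the siControl-only peaks was 1.22 times (1.10 to 1.35) that at the shared peaks. At the siVRK1-only peaks the ubK119 ratio was 0.597 (0.593 to 0.602), so that the siControl-only peaks had 2.84 times (2.78 to 2.91) that ratio. Over input, ubK119 there was at 0.801 (0.795 to 0.808) after siVRK1 and at 1.17 (1.16 to 1.18) after siControl, the reverse of the siControl-only peaks. The input ratio also differed, at 0.873 (0.867 to 0.880) there. Divided by the input ratio of the same regions, the ubK119 ratio was 1.44 (1.40 to 1.49) at the siControl-only, 0.997 (0.870 to 1.14) at the shared and 0.684 (0.677 to 0.691) at the siVRK1-only peaks, so the sets lay closer together than without the division. The shared and siVRK1-only sets were chosen on the siVRK1 pT120 list, not on ubK119, but the 2 were related in these data. Over the 19 chromosomes with at least 20 siControl-only peaks, the ubK119 ratio had a Spearman rho of -0.786 with siVRK1 pT120 over input. The ubK119 differences between these sets are thus a description, and their cause was not tested.

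Single regions had few reads, so a count of regions past a fold is wide. With at least 10 ubK119 reads over both siRNAs, 1752 of the 2668 siControl-only peaks could be counted. A siVRK1 level of at least 2 times the siControl level was met by 32.0% of all siControl pT120 regions and by 793 of the 1752 (45.3%, 42.9 to 47.6). A level at or below 0.5 times was met by 3.35% of all and by 75 of the 1752 (4.28%, 3.38 to 5.34). The inputs under the same rule gave 12.8% of all regions and 349 of 1665 siControl-only peaks (20.96%) at 2 times or more, and 4.45% of all and 108 of 1665 (6.49%) at 0.5 times or less. Against the siVRK1 input, siVRK1 ubK119 was at 2 times or more at 10.7% of all regions and at 397 of 1987 siControl-only peaks (19.98%), and at 0.5 times or less at 7.34% of all and at 207 of the 1987 (10.4%). Against the siControl input, siControl ubK119 was at 2 times or more at 6.07% of all and at 139 of 1399 siControl-only peaks (9.94%), and at 0.5 times or less at 20.9% of all and at 330 of the 1399 (23.6%). The siControl-only peaks thus held more regions past the fold in either direction, for ubK119, for input and for ubK119 over input, and had fewer reads per region than the others, with medians of 6 against 23 reads of siVRK1 ubK119.

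Few of the siControl-only peaks were ubK119 peaks. The lowest height was 18 reads (0.600 RPM) in the siVRK1 and 15 reads (0.371 RPM) in the siControl ubK119 list. The shares of siVRK1 and siControl ubK119 peaks below thus rest on unlike thresholds, with 13818 and 28955 peaks listed. No ubK119 peak was overlapped by 2505 of them (93.9%, 92.9 to 94.8). A ubK119 peak of siVRK1 cells only was overlapped by 72 (2.699%, 2.12 to 3.39), one of siControl cells only by 77 (2.89%, 2.28 to 3.59) and one under both siRNAs by 14 (0.525%, 0.287 to 0.879). In all, a siVRK1 ubK119 peak lay at 3.22% (2.59 to 3.97) of the siControl-only peaks against 57.8% (56.3 to 59.4) of the other siControl pT120 peaks, and a siControl ubK119 peak at 3.41% (2.75 to 4.17) against 67.8% (66.3 to 69.2). Most of the other peaks overlapped input peaks. The shares moved with the rule: among the 297 siControl-only peaks with a height of at least 14 reads they were 6.73% (4.16 to 10.2) for siVRK1 and 5.05% (2.85 to 8.19) for siControl ubK119 peaks, and with no excluded peak within 500 bp they were 2.39% (1.804 to 3.11) and 2.04% (1.497 to 2.71). Over all siControl pT120 peaks, 36.0% had a siVRK1 and 42.0% a siControl ubK119 peak. Among the 296 VRK1-overlapping peaks, which lay outside input peaks, 31.4% (26.2 to 37.0) had a siVRK1 and 33.4% (28.1 to 39.1) a siControl ubK119 peak. Of the 86 shared peaks, 6.98% (2.60 to 14.6) had a siVRK1 and 44.2% (33.5 to 55.3) a siControl ubK119 peak. Of the siVRK1-only peaks, 0.138% (0.103 to 0.181) had a siVRK1 and 3.03% (2.86 to 3.21) a siControl ubK119 peak.

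The split by ubK119 peak sorted the regions by their ubK119 reads, which is how it was made. The 2505 peaks without a ubK119 peak had 563 RPM of ubK119 in siVRK1 and 336 RPM in siControl cells, a ratio of 1.68 (1.64 to 1.72). They made up 93.9% of the siControl-only peaks, so a ratio near the 1.70 of all says little more. The 72 peaks with a siVRK1 ubK119 peak had 44.4 and 13.2 RPM, a ratio of 3.37 (3.05 to 3.74). The 14 peaks called under both siRNAs had 11.98 and 5.91 RPM, a ratio of 2.03 (1.72 to 2.40). The 77 peaks with a siControl ubK119 peak had 26.6 and 25.3 RPM. Their ratio was 1.05 (0.956 to 1.15), an interval that includes 1. It was 0.626 times (0.569 to 0.689) the ratio of the peaks without a ubK119 peak. Divided by the input ratio of the same regions it was 0.924 (0.794 to 1.07), against 1.43 (1.38 to 1.47) without a ubK119 peak. The choice of siControl ubK119 peaks favours siControl reads, so nothing is read from this difference.

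Levels of pT120, VRK1 and input entered the choice of the peaks, so their values in these classes are a description. siVRK1 pT120 was at 0.371 times (0.316 to 0.435) its input where a siVRK1 ubK119 peak lay, at 0.567 times (0.4995 to 0.643) where a siControl ubK119 peak lay, and at 0.461 times (0.449 to 0.474) with no ubK119 peak. VRK1 over siControl input was 1.49 (1.30 to 1.70) with a siVRK1 ubK119 peak, 1.20 (1.06 to 1.35) with a siControl ubK119 peak and 1.19 (1.16 to 1.22) with none. The 14 peaks called under both siRNAs had 0.410 (0.302 to 0.5496) for siVRK1 pT120 and 1.68 (1.28 to 2.22) for VRK1.

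**Figure D3:**
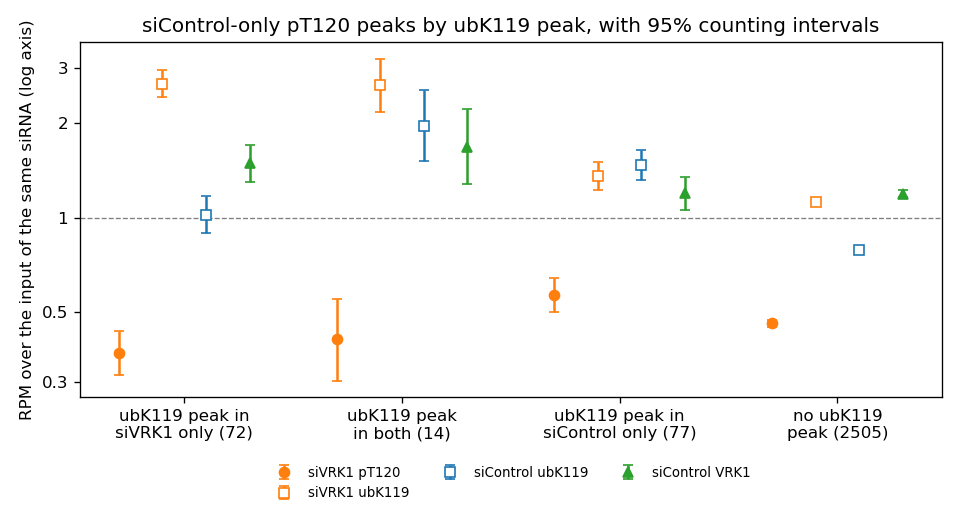
Level over the input of the same siRNA (log axis) at the siControl-only pT120 peaks, split by whether they overlap a ubK119 peak of siVRK1 cells, of both, of siControl cells or none, with 95% counting intervals. siVRK1 pT120, which entered the choice of the peaks, lies between 0.371 and 0.567 times input.

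The peaks with the most ubK119 reads show what such regions look like. On chromosome 3 from 133663344 to 133663622, called for ubK119 under both siRNAs, ubK119 had 51 reads in siVRK1 and 18 in siControl cells, a ratio of 3.82 (2.20 to 6.95). There pT120 had 3 and 17 reads, input 14 and 9, and VRK1 15. On chromosome 5 from 1248848 to 1249225, also called under both, ubK119 had 48 and 29 reads (ratio 2.23, 1.38 to 3.67), and pT120 7 and 19. Not far from it, the region from 1229897 to 1230097 was called for ubK119 in siVRK1 cells only, with 38 and 10 reads (ratio 5.13, 2.51 to 11.5), and pT120 had 1 and 12. Another region of that stretch, from 1197921 to 1198168, had 29 and 20 ubK119 reads, a ratio of 1.96 (1.07 to 3.65). On chromosome 12 from 165392 to 165716 ubK119 had 35 and 28 reads, a ratio of 1.69 (0.997 to 2.88), whose interval includes 1. Peaks of these classes lack a siVRK1 pT120 peak and were picked for many ubK119 reads, so their choice favours a low pT120 and a high ubK119 in siVRK1 cells, and nothing is read from the order.

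Other regions called for ubK119 after siVRK1 only are described next, and their choice favours ubK119 reads of siVRK1 cells too. On chromosome 3 from 128157798 to 128158060 ubK119 had 34 reads in siVRK1 and 10 in siControl cells, a ratio of 4.59 (2.22 to 10.4), and VRK1 had 14 reads against 3 of siControl input. On chromosome 7 the region from 44298084 to 44298615, one of the longest, had 32 and 9 ubK119 reads (ratio 4.80, 2.24 to 11.4), and 4 and 29 reads of pT120. On chromosome 18 from 13545959 to 13546322 and on chromosome 5 from 5890568 to 5891075 ubK119 had 29 and 15 reads each, a ratio of 2.61 (1.35 to 5.23).

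Of the 77 regions with a siControl ubK119 peak only, 18 lay on chromosome 18, against 3 of the 72 with a siVRK1 ubK119 peak only. Chromosome 18 held 89 of all siControl-only peaks (3.34%). Its input reads per region were the highest among chromosomes with at least 20 of these peaks, at 9.27 in siVRK1 and 6.11 in siControl cells. On that chromosome from 9430484 to 9431064, the longest of all siControl-only peaks, ubK119 had 24 reads in siVRK1 and 30 in siControl cells, a ratio of 1.08 (0.604 to 1.91), and the inputs had 23 and 6 reads. From 9426794 to 9427172 ubK119 had 16 and 26 reads (ratio 0.830, 0.416 to 1.61), and pT120 15 and 21. From 8724361 to 8724666 ubK119 had 18 and 20 reads (ratio 1.21, 0.606 to 2.42), and on chromosome 1 from 7539900 to 7540289 it had 21 and 19, a ratio of 1.49 (0.763 to 2.93). The intervals of these 4 ratios all included 1.

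Regions with many ubK119 reads but no ubK119 peak were led by one on chromosome 20 from 19351524 to 19352067, which also had the most VRK1 reads. ubK119 had 34 reads in siVRK1 and 14 in siControl cells there, a ratio of 3.28 (1.71 to 6.61). VRK1 had 28 reads and the inputs 26 and 20, so that VRK1 stood at 1.18 times (0.639 to 2.20) the siControl input. On chromosome 5 from 1645183 to 1645643 ubK119 had 32 and 8 reads (ratio 5.397, 2.44 to 13.6), and pT120 had 2 and 23 reads. On chromosome 9 from 33416289 to 33416551 the ratio was 2.07 (1.03 to 4.26), and on chromosome 3 from 193533365 to 193533751 it was 1.35 (0.662 to 2.75).

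The highest siControl-only peaks differed among themselves in ubK119. On chromosome 21 from 11168860 to 11169181, with a height of 19 reads, pT120 had 0 reads in siVRK1 and 21 in siControl cells, and ubK119 22 and 8, a ratio of 3.71 (1.59 to 9.64). The inputs there had 12 and 1 reads. On chromosome 11 from 17764927 to 17765267 pT120 had 2 and 19 reads and ubK119 23 and 8, a ratio of 3.88 (1.67 to 10.03). On chromosome 17 from 76313426 to 76313738 the order of ubK119 was the reverse, with 1 read in siVRK1 and 20 in siControl cells, a ratio of 0.0675 (0.00163 to 0.422). There pT120 had 3 and 20 reads and input 11 and 7. On chromosome 10 from 129748689 to 129748985 ubK119 had 1 and 7 reads, a ratio of 0.193 (0.00428 to 1.5002). On chromosome 13 from 21293340 to 21293631 it had 11 and 10, a ratio of 1.48 (0.572 to 3.90), and on chromosome 1 from 16957664 to 16958050 15 and 9, a ratio of 2.25 (0.922 to 5.83). The last 3 intervals included 1.

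Of the 4 peaks with the most VRK1 reads, that on chromosome 3 from 75721464 to 75721823 had 19 VRK1 reads against 5 of siControl input, 3.19 times (1.15 to 10.9) input. The one on chromosome 3 from 135897967 to 135898297 had 20 against 9, and an interval (0.812 to 4.65) that includes 1. The chromosome 20 region above and that on chromosome 18 from 13545959 to 13546322, with 21 VRK1 against 12 input reads, also had intervals that include 1.

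Subdivision of the siControl-only peaks by height or length changed the sums little. The ubK119 ratio was 1.67 (1.61 to 1.73) for peaks above the minimum height and 1.72 (1.67 to 1.77) at the minimum, a ratio of ratios of 0.970 (0.929 to 1.01). Peaks longer than 200 bp had 1.67 (1.62 to 1.72) and those of 200 bp 1.73 (1.68 to 1.78), a ratio of ratios of 0.965 (0.925 to 1.01). siVRK1 pT120 over input was 0.466 (0.447 to 0.485) above and 0.459 (0.445 to 0.475) at the minimum height. VRK1 over input was 1.200 (1.16 to 1.25) above and 1.21 (1.17 to 1.24) at the minimum height. The 297 peaks with a height of at least 14 reads had 1.74 (1.65 to 1.84) for ubK119.

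The siControl-only peaks were spread unevenly, with at least 20 on each of 19 chromosomes. Chromosome 3 held 514 of them (19.3%), chromosome 5 held 263 (9.86%) and chromosome 13 held 169 (6.33%), against 5.93%, 4.55% and 1.001% of the other siControl pT120 peaks. Chromosome 18 held 89 (3.34%), against 1404 (35.1%) of the others, and chromosome X 0 against 62. The siVRK1-only peaks had 28.03% on chromosome 3, 10.2% on chromosome 5 and 10.7% on chromosome 13. Chromosome 19 held 106 siControl-only peaks (3.97%), against 0.710% of the siVRK1-only and 1.35% of the other siControl pT120 peaks, and chromosome 17 held 109 (4.09%), against 1.66% and 2.20%. Input reads per region also differed between chromosomes. Among the 19, the siControl input mean was highest on chromosome 18, then on chromosomes 3, 13 and 5, which held the most peaks. In the siVRK1 input this order did not hold for chromosome 13. It lay below chromosomes 20, 21, 9, 16 and 19, which had means of 7.48, 6.92, 6.75, 6.63 and 6.58 reads. The siVRK1 and siControl inputs had means of 9.27 and 6.11 reads on chromosome 18, 7.61 and 5.13 on chromosome 5, 7.59 and 5.30 on chromosome 3, 6.56 and 5.17 on chromosome 13, 6.27 and 3.97 on chromosome 1, 6.15 and 4.13 on chromosome 2 and 6.03 and 3.52 on chromosome 17. The part of DNA copy number in where peaks were called was not tested.

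**Figure D4:**
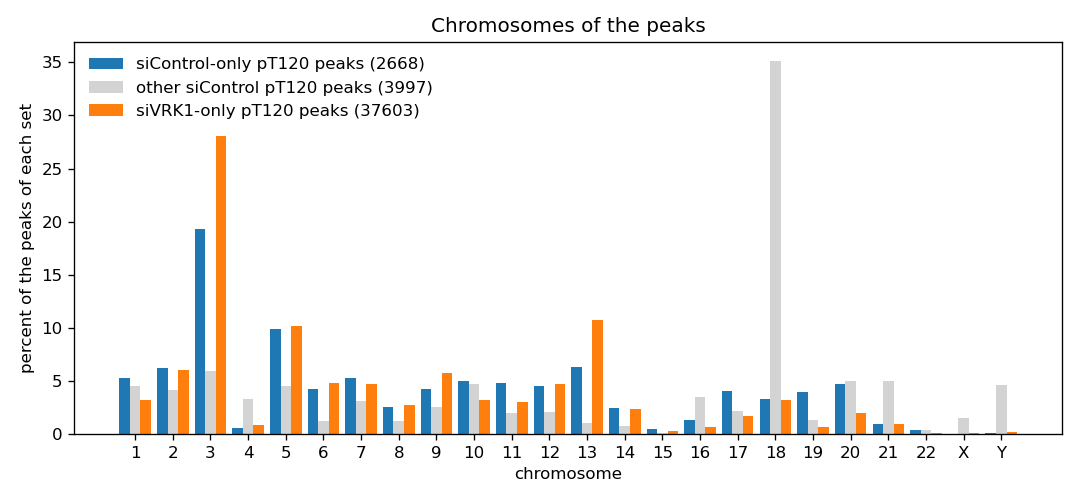
Percent of the siControl-only, the other siControl and the siVRK1-only pT120 peaks on each chromosome. The siControl-only peaks have 19.3% on chromosome 3, and the other siControl peaks 35.1% on chromosome 18.

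Most siControl-only peaks had another within 1 Mb, and few had one within 10 kb; no expected spacing was computed. Another of them lay within 1 kb for 25 (0.937%), within 10 kb for 248 (9.295%), within 100 kb for 1242 (46.6%) and within 1000 kb for 2391 (89.6%). The 8 fullest windows of 10 Mb, picked for their number of peaks, held 548 of the 2668 (20.5%). The first 10 Mb of chromosome 5 held 100, where ubK119 had a ratio of 1.73 (1.59 to 1.89), and input one of 1.30 (1.17 to 1.46). The stretch from 120 to 130 Mb of chromosome 3 held 95 (ubK119 ratio 1.62, 1.46 to 1.797), and that from 190 to 200 Mb 78 (1.59, 1.42 to 1.79). The first 10 Mb of chromosome 18 held 50 among 1214 other siControl pT120 peaks, with a ubK119 ratio of 1.302 (1.15 to 1.47) beside an input ratio of 1.24 (1.08 to 1.43). The 868 peaks with a neighbour within 50 kb had a ubK119 ratio of 1.66 (1.600 to 1.71), against 1.73 (1.68 to 1.77) for the rest, a ratio of ratios of 0.960 (0.919 to 1.003). Their siControl ubK119 over input was 0.878 (0.844 to 0.913), against 0.798 (0.774 to 0.822) for the rest.

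The ubK119 ratio was above 1 on each of the 19 chromosomes with at least 20 siControl-only peaks, with intervals that excluded 1 on all 19, when scaled to library totals. Scaled to the median over all siControl pT120 regions, a choice made after seeing the data, it was above 1 on 16, with an interval above 1 on 11, and below 1 on chromosomes 8, 16 and 18, the last with an interval below 1 (value 0.901). Chromosome 18 had the lowest value, 1.38 (1.25 to 1.52), then chromosome 8 with 1.40 (1.203 to 1.63); chromosomes 19 and 2 had the highest, 1.99 (1.78 to 2.24) and 2.04 (1.86 to 2.24). The input ratio, to library totals, was also above 1 on all 19, between 1.03 (0.938 to 1.12) for chromosome 13 and 1.44 (1.12 to 1.87) for chromosome 21, and its interval excluded 1 on 14. On chromosome 18 the ubK119 and input intervals overlapped (input 1.23, 1.10 to 1.37), and on chromosome 2 they did not (input 1.20, 1.09 to 1.33). siVRK1 pT120, which entered the rule, was below its input on all 19, with 0.341 for chromosome 21 as the lowest and 0.528 for chromosome 18 as the highest value. VRK1 over siControl input was lowest on chromosome 13, at 1.03, and highest on chromosome 21, at 1.57, followed by 1.49 on chromosome 17 and 1.43 on chromosome 19.

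**Figure D5:**
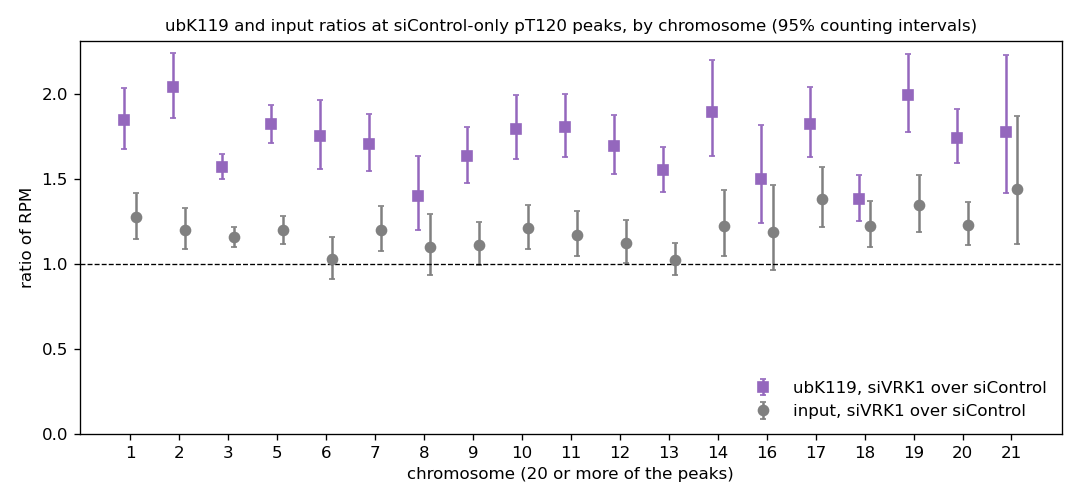
Ratio of siVRK1 to siControl RPM at the siControl-only pT120 peaks on each chromosome with at least 20 of them, for ubK119 (squares) and input (dots), with 95% counting intervals. Scaled to library totals, all ubK119 ratios lie between 1.38 and 2.04, and the input ratios between 1.03 and 1.44.

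Peaks called with other antibodies but not for siControl pT120 showed the levels in the neighbourhood. The regions counted overlapped no siControl pT120 peak, a choice that favours siVRK1 pT120 at every distance. Of the VRK1 peaks outside input peaks, 3779 lay within 50 kb of a siControl-only pT120 peak, 6478 between 50 kb and 1 Mb and 960 farther away. Their pT120 ratio of siVRK1 to siControl was 0.476 (0.466 to 0.486), 0.463 (0.455 to 0.471) and 0.5295 (0.505 to 0.555), in that order of distance. The nearest had 0.899 times (0.854 to 0.946) the ratio of the farthest, while the middle group was the lowest, so the ratio did not follow distance step by step. siControl pT120 over input was 1.18 (1.15 to 1.20), 1.14 (1.13 to 1.16) and 1.05 (1.005 to 1.10). The ubK119 ratios were 1.698 (1.67 to 1.72), 1.74 (1.72 to 1.76) and 1.63 (1.57 to 1.68), beside 1.70 at the siControl-only peaks themselves. The input ratio of the nearest was 1.05 times (1.01 to 1.10) that of the farthest.

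The order of the ubK119 ratio with distance differed between lists. At siControl ubK119 peaks outside input peaks it was 0.682 (0.676 to 0.688) within 50 kb of a siControl-only pT120 peak, 0.586 (0.582 to 0.590) up to 1 Mb and 0.439 (0.431 to 0.448) beyond it, so that the nearest had 1.55 times (1.52 to 1.59) the ratio of the farthest. At siVRK1 ubK119 peaks the order was the reverse, with 2.93 (2.90 to 2.97), 3.33 (3.30 to 3.36) and 3.73 (3.61 to 3.85), and 0.787 times (0.760 to 0.815) for the nearest over the farthest. Each of these lists favours ubK119 in its own cells at every distance. At siControl input peaks the ubK119 ratio was 1.31, 1.32 and 1.32, and the nearest had 0.988 times (0.961 to 1.02) the ratio of the farthest, an interval that includes 1. Nearness to a siControl-only pT120 peak thus went with no single direction of the ubK119 ratio. The input ratio of the nearest over the farthest was 1.08 (1.05 to 1.12) at siControl ubK119, 1.06 (1.005 to 1.11) at siVRK1 ubK119 and 1.32 (1.29 to 1.35) at siControl input peaks, the last chosen on siControl input reads. The pT120 ratio of the nearest over the farthest was 0.835 (0.808 to 0.863) at siControl ubK119, 0.947 (0.888 to 1.01) at siVRK1 ubK119 and 0.927 (0.897 to 0.958) at siControl input peaks. Without chromosomes X and Y the farthest siControl ubK119 peaks had 0.439 and the farthest siVRK1 ubK119 peaks 3.73 for ubK119.

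The siControl-only peaks lay closer to peaks of most other lists than the siVRK1-only peaks did. These sets were spread differently over the chromosomes, and no expected distance was computed. The nearest VRK1 peak was at a median distance of 22.2 kb, against 62.1 kb for the siVRK1-only peaks, the nearest siVRK1 ubK119 peak at 54.4 kb against 253 kb, and the nearest siControl ubK119 peak at 30.1 kb against 54.4 kb. Input peaks were also nearer, at 15.98 kb against 43.5 kb for the siVRK1 input and 27.2 kb against 38.9 kb for the siControl input. A siVRK1 pT120 peak lay within 10 kb of 931 siControl-only peaks (34.9%) and within 1 kb of 194 (7.27%).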

How the data were processed

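Tools named in the submitters' processing notes are Bowtie 0.12.8, CASAVA 1.8.2 and Partek, with the build hg19; their roles are not stated there. The headers of the deposited files also give hg19. Caller settings, removal of duplicates and any use of input during calling were not given in the sources used. The labels' protocols give 20 cycles of PCR and 36 cycles of sequencing, so duplicates and repeated sequence can raise counts.

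Each deposited list gives region lengths, raw read counts of all 7 libraries per region, the percent of a region covered by peaks of every library, and the authors' peak height (a signal of extended reads), its RPM and a Mann-Whitney p-value. Height divided by RPM gave library totals, 20.7 to 40.4 in units of 1e6 reads; 3 reads are 0.0742 to 0.145 RPM. Overlap calls differed from the deposited percent in 0 cases. Positions are as deposited.

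Sums of RPM were compared as ratios with exact conditional binomial intervals, ratios of ratios with log-scale intervals, and shares with Clopper-Pearson intervals (Python 3.11.15, scipy 1.17.1). The calculation was tested on simulated data. The siRNA groups share no control, and each was 1 library. Named peaks are the 6 highest, in each ubK119 class the 4 with most ubK119, the 4 with most VRK1, the 4 longest and the 2 nearest the rule's edge. The members, sets and rules were chosen with earlier results of these data known; windows and distance groups after the data were seen. Regions of other lists had at most 100 reads in each input. hg19 sequence was not used here.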

Additional observations from a re-analysis of the deposited data

How the results depend on the processing

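The 11 main values were recomputed under up to 8 alternatives, and 48 recomputed values stayed within the counting interval of the main value (for the numbers of peaks and chromosomes, within 1.5 times). Scaling to the median of all siControl pT120 regions reversed siControl ubK119 over input (1.12) and moved the ubK119 ratio to 1.11, the input ratio to 1.12, siVRK1 ubK119 over input to 1.14, VRK1 over input to 1.13 and siVRK1 pT120 over input to 0.867; it divides by a median of the same list, so it gives levels relative to the typical pT120 region. The median over regions gave a ubK119 ratio of 1.65, an input ratio of 1.13, siVRK1 and siControl ubK119 over input of 1.11 and 0.786, VRK1 over input of 1.18 and siVRK1 pT120 over input of 0.484. A height of at least 14 reads left 297 peaks, with a ubK119 ratio of 1.74, siVRK1 and siControl ubK119 over input of 1.26 and 0.863, VRK1 over input of 1.24, and 6.73% with a siVRK1 and 5.05% with a siControl ubK119 peak. With no excluded peak within 500 bp, these shares were 2.39% and 2.04%, and the ubK119 ratio relative to the shared peaks was 1.55. Without chromosome 3, siVRK1 ubK119 over input was 1.22. The cause of these shifts was not tested. No paired analysis was possible because each group was 1 library and the titles carry no replicate numbers. At a median of 3 to 12 reads per region, depth limits what a single peak can show, and intervals cover counting error only.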
